A study of Homo sapiens with 12 samples.

Results

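BSJ-03-123 and YKL-06-102 are conjugates that the submitters label as specific for the kinase CDK6, and they were compared here directly with each other. The comparison took the 3 libraries of BSJ-03-123 and the 3 of YKL-06-102, 6 of the 12 libraries of the series, and all genes with enough counts, 14214 of the 58051 in the table. All libraries came from MV4-11, an established line from an acute myeloid leukaemia. The cells had received BSJ-03-123 at 200 nM, YKL-06-102 at 200 nM, the kinase inhibitor palbociclib at 200 nM, or 0.1% DMSO as the vehicle, each for 6 h and each in 3 libraries. The conjugates are 1 pair at a matched dose and time, and no structural difference between them is described in the labels. Only RNA was measured, in a single line at a single dose, so no level of CDK6 protein can be given.

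CDK4 and CDK6, bound to D-type cyclins, phosphorylate RB and its relatives, and this frees E2F transcription factors to switch on the genes of DNA replication. When the kinases are blocked or removed, E2F target transcripts fall within hours, and genes of mitosis follow as fewer cells pass through the cycle. Phthalimide conjugates are made to bring a target protein to cereblon, the substrate receptor of a CUL4 and DDB1 ubiquitin ligase, so that the target is degraded. Cereblon ligands can also recruit zinc-finger proteins of their own, such as members of the IKZF family. In myeloid leukaemia cells CDK6 is abundant and has been studied both as a cell-cycle kinase and as a cofactor of transcription.

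The library totals were 19803323, 20769172 and 21021137 counts for BSJ-03-123 and 23416204, 24181414 and 24350966 for YKL-06-102, so each YKL-06-102 library was deeper than each BSJ-03-123 library. Of 10 myeloid markers 9 passed the filter on low counts, and CD14, at 2 to 11 counts, did not. Summed over all 10, they lay between 2227 and 2244 CPM (counts scaled to library size) with BSJ-03-123 and between 2531 and 2554 with YKL-06-102. The members did not all go this way. PTPRC (means of 100.2 and 76.62 CPM) and FLT3 (421.8 and 387.5) were lower with YKL-06-102. The means of the others were similar or higher, and LYZ rose by the most CPM (689.0 and 843.3). CD3D, MS4A1, HBB, PF4 and EPCAM, which mark T, B, red blood, platelet and epithelial cells, were at 0 in all 6 libraries. The 5 markers listed as stromal and epithelial, 2 of them tested, summed to 154.1 to 158.4 CPM with BSJ-03-123 and 129.9 to 137.5 with YKL-06-102. Most of these sums was PECAM1, with means of 143.5 and 122.4 CPM, and KRT18 had 12.2 and 11.35. PECAM1 is not specific to stromal or epithelial cells, so these sums do not measure such cells. COL1A1 and COL1A2 had 7 counts or fewer in each of the 6 libraries. The part of these markers in the results was not tested. DMSO replicate 2 stood apart from its fellows, with 5.89 and 8.93 times the count variance of sampling alone against 1.72 to 2.95 in the other pairs, and without it 3445 genes were called between the conjugates in place of 2861. How the 3 libraries of a group relate, as separate cultures or as repeats of one, is not given, so p-values reflect the spread among these libraries alone, and that may be technical.

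The conjugates differed at many genes, mostly by little, and at a small number by a large factor. Differences are given as log2 of YKL-06-102 minus BSJ-03-123, so that a positive value is a higher level with YKL-06-102. A gene was called where edgeR's quasi-likelihood test, with Benjamini-Hochberg adjustment over the 14214 genes, gave a p under 0.05. Of the tested genes 2861 were called, or 20.1%, with 1476 higher (10.4%) and 1385 lower (9.74%) with YKL-06-102. At least 1.5-fold differences were called for 294 genes higher and 141 lower, and at least 2-fold differences for 124 higher (0.872%) and 45 lower (0.317%). The 3 YKL-06-102 libraries lay above all 3 BSJ-03-123 libraries at 2498 genes (17.6%) and below them at 2560 (18%). The number of genes lower with YKL-06-102 fell when any 1 conjugate library was left out. It was 903, 971 and 1022 without BSJ-03-123 replicates 1, 2 and 3, and 840, 823 and 795 without YKL-06-102 replicates 1, 2 and 3. With all libraries kept, it was 979 by DESeq2 and 1040 with no filter on low counts.

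Small differences followed the base composition and the length of the transcripts. With genes in 5 equal bins by GC content, the median difference was -0.055 in the bin of lowest GC, with 15.7% called lower, and 0.032 in the bin of highest GC, with 5.97% called lower. By transcript length the bin of longest transcripts had -0.051 with 20.4% called lower, against 0.016 and 2.36% in the bin of shortest. With GC and length offsets in the fit, 1748 genes were higher and 1195 lower, and 168 of the 169 genes that differed at least 2-fold stayed called. With all libraries thinned to the same total, 157 of the 166 such genes that were still testable stayed called. The largest differences stood well outside these shifts, as the plot of difference against level shows.

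**Figure D1:**
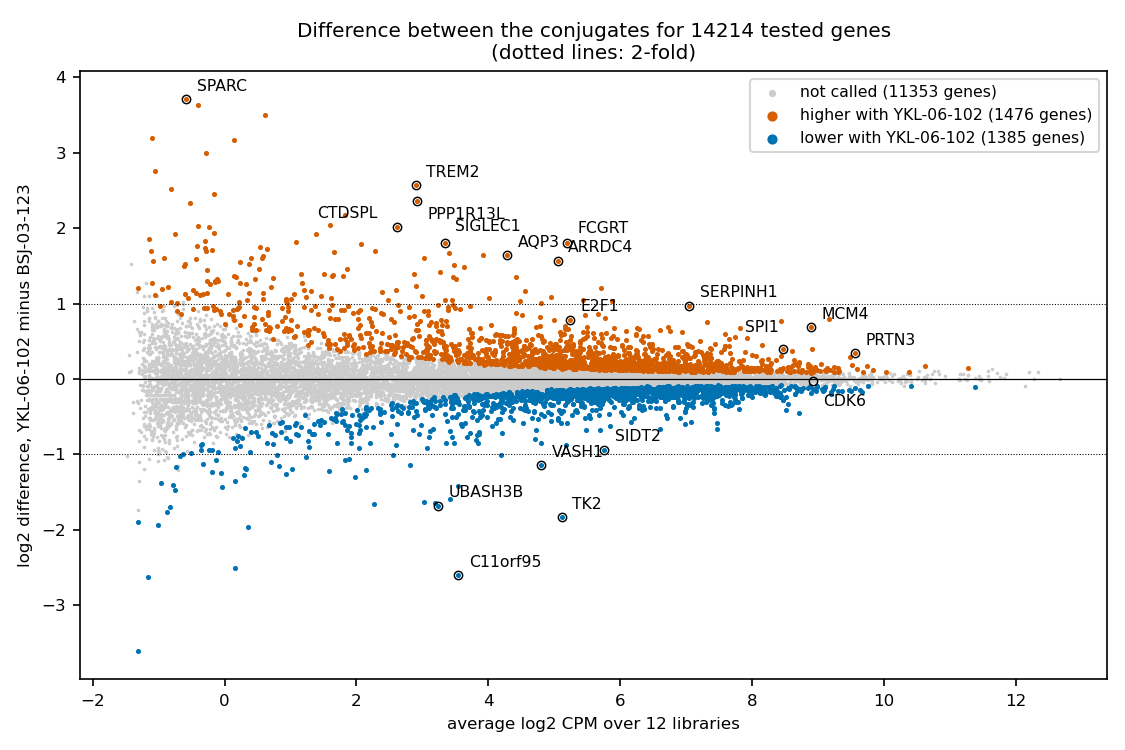
Log2 difference between YKL-06-102 and BSJ-03-123 (vertical axis) against the average log2 CPM over the 12 libraries (horizontal axis) for each of the 14214 tested genes, coloured by call, with dotted lines at 2-fold. Most of the 2861 called genes lie within 2-fold of 0, and TREM2 at 2.57 and C11orf95 at -2.60 stand out among genes of moderate level.

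Genes that did not pass the test were bounded closely where they were well covered. Among 7795 uncalled genes whose average log2 CPM was 2 or more, the 95% interval stayed within 1.5-fold either way for 99.6%. Among all 10368 genes at that level, called or not, 99.2% had an interval within 2-fold. The narrowest intervals among abundant uncalled genes belonged to PDIA6 (-0.071 to 0.042), ACIN1 (-0.0054 to 0.11), TXNIP (-0.10 to 0.010), DHX9 (-0.038 to 0.077) and SERBP1 (-0.076 to 0.039). TXNIP, an arrestin that reports on glucose supply, lay at 443 to 452 CPM with BSJ-03-123 and at 430 to 436 with YKL-06-102, and ACIN1 passed the test when DMSO replicate 2 was left out (0.074 in that fit). Genes of low level were bounded less well, and over all 11353 uncalled genes 91.8% had an interval within 2-fold.

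Where the average log2 CPM was 2 or more and the groups did not overlap, the largest called differences above the BSJ-03-123 level were those of TREM2, PPP1R13L, CTDSPL, FCGRT and SIGLEC1. Some genes of lower level differed by more. TREM2, a lipid-sensing receptor of macrophages and microglia (chromosome 6, 41158506 to 41163186, GRCh38), measured 3.31, 3.78 and 3.02 CPM in the BSJ-03-123 libraries and 20.2, 19.6 and 20.3 CPM with YKL-06-102. The BSJ-03-123 mean of 3.37 ± 0.384 CPM (SD, n = 3) lay above the 2.0 ± 0.235 of DMSO, by 0.74 on the log2 scale (edgeR adjusted p = 0.000356). The difference was 2.57 ± 0.11 (SE), or 5.94-fold (edgeR adjusted p = 7.44e-18).

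FCGRT, the heavy chain of the neonatal Fc receptor (chromosome 19, 49506816 to 49526333), measured 22.0, 21.1 and 24.9 CPM with BSJ-03-123 and 79.4, 77.0 and 80.5 CPM with YKL-06-102. The libraries of each conjugate kept close together, and the BSJ-03-123 level was 0.21 above DMSO on the log2 scale (19.5 CPM; edgeR adjusted p = 0.0334). The difference was 1.80 ± 0.062 (edgeR adjusted p = 1.83e-18). SIGLEC1, the sialic acid receptor CD169 of tissue macrophages, differed as much (1.80 ± 0.087), with 5.85 to 6.47 CPM under BSJ-03-123 and 20.8 to 23.5 under YKL-06-102. ANPEP, the myeloid aminopeptidase CD13, was 3.45-fold higher and LGALS3BP, a secreted glycoprotein that binds galectin 3, was 3.25-fold higher.

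ARRDC4, an arrestin-domain gene related to TXNIP, measured 23.9, 24.4 and 22.9 CPM with BSJ-03-123 and 69.7, 71.5 and 70.1 CPM with YKL-06-102. The difference of 1.57 ± 0.047 had an edgeR adjusted p of 1.29e-19. CTDSPL, a phosphatase known to act on RB, measured 3.86, 3.21 and 2.31 CPM with BSJ-03-123 and 11.5, 13.2 and 13.2 with YKL-06-102. It lay on either side of the vehicle: DMSO had 5.30 ± 0.536 CPM, with BSJ-03-123 0.76 lower on the log2 scale (edgeR adjusted p = 0.000267) and YKL-06-102 1.26 higher (3.65e-10). The receptor of interleukin 7, IL7R, rose with both, from a DMSO level of 3.38 CPM to 7.79 under BSJ-03-123 and 20.8 under YKL-06-102, and the conjugates differed by 1.42 ± 0.086 (edgeR adjusted p = 2.01e-13).

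The rest of the 15 highest genes of moderate level included a water and glycerol channel (AQP3, 1.64), the coreceptor NRP1 (1.48), the scaffold gene FRMD4A (1.67), the nuclear receptor NR1H3 (1.61), PPP1R13L (2.37) and cyclin E2 (CCNE2, 1.65). Over the 15 genes the difference of BSJ-03-123 from DMSO ran from -3.72 (CCNE2) to 1.21 (IL7R) with a median of 0.29. That of YKL-06-102 from DMSO ran from -2.07 (CCNE2) to 3.31 (TREM2) with a median of 2.01. CCNE2 was thus below DMSO with both conjugates. Both sets of values rest on the same DMSO libraries. PPP1R13L, NR1H3 and CCNE2 share exonic bases with the expressed neighbours CD3EAP, ACP2 and INTS8, and FRMD4A with a weaker transcript. Whether the authors' counting used strand is not given, so reads of such neighbours could be mixed. CD3EAP itself differed by -0.37, opposite to PPP1R13L.

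**Figure D2:**
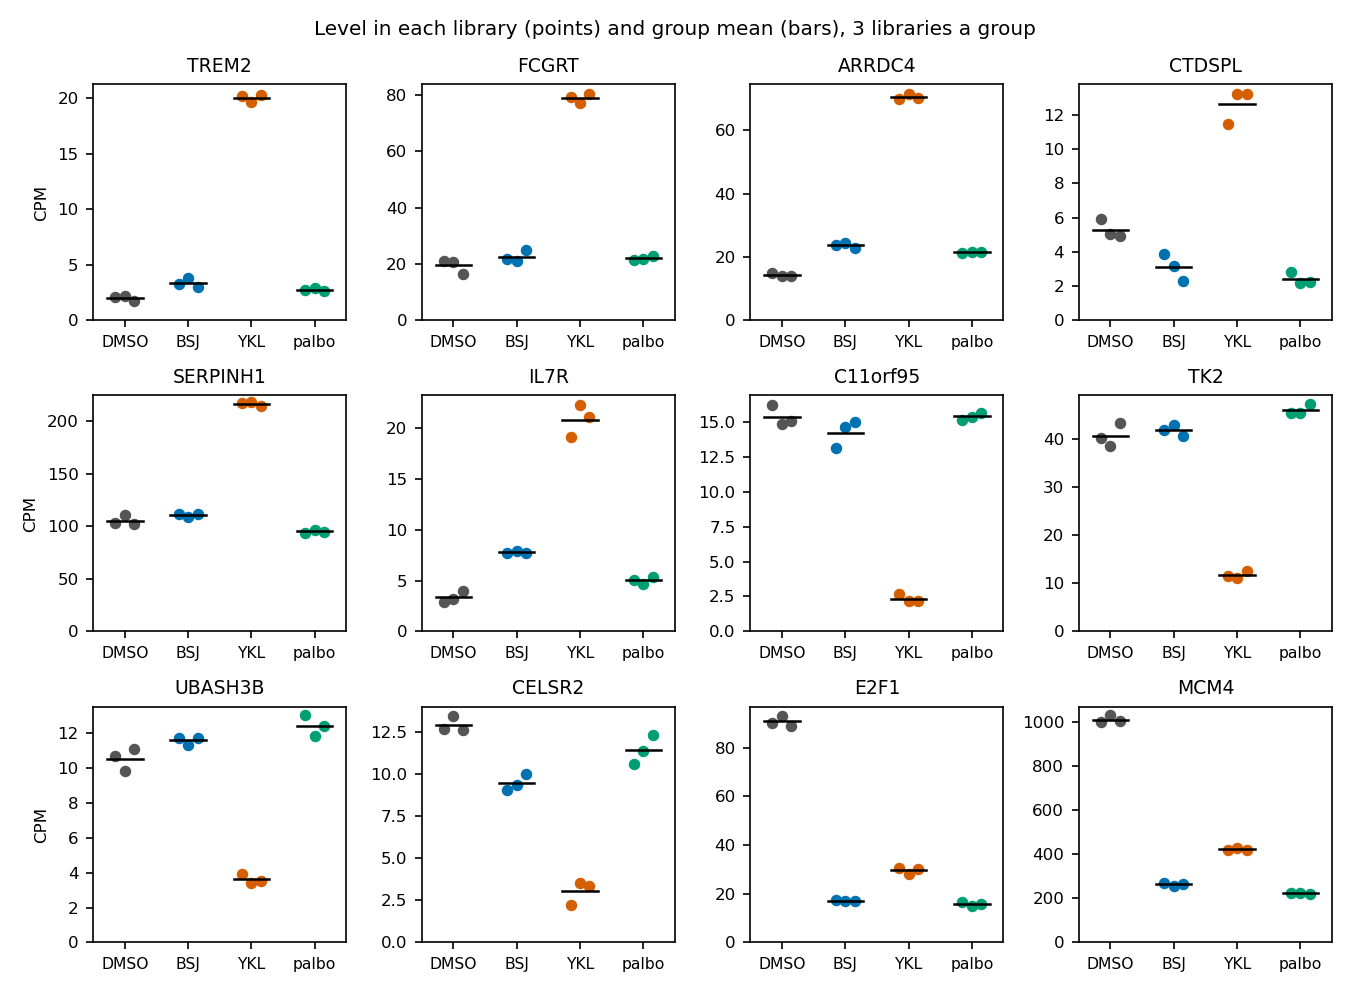
Level in CPM (vertical axis, from 0) of 12 genes in every library of the 4 groups (points), with the group mean (bar); BSJ, YKL and palbo stand for BSJ-03-123, YKL-06-102 and palbociclib. In the upper 2 rows the YKL-06-102 libraries stand apart from the other 9, above them for TREM2 (19.6 to 20.3 CPM) and below them for C11orf95 (2.14 to 2.70 CPM), while for E2F1 and MCM4 all treated libraries lie below DMSO.

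At the same minimum level, the genes furthest below the BSJ-03-123 level differed from the vehicle mainly under YKL-06-102. C11orf95, a zinc-finger gene also named ZFTA that is known from fusions in ependymoma (chromosome 11, 63759892 to 63768775), measured 13.1, 14.6 and 14.9 CPM with BSJ-03-123 and 2.70, 2.18 and 2.14 CPM with YKL-06-102. DMSO had 15.3 ± 0.719 CPM and palbociclib 15.4, so YKL-06-102 was far below the other 3 groups. The difference was -2.60 ± 0.12, or 6.07-fold (edgeR adjusted p = 5.78e-17).

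TK2, the thymidine kinase of mitochondria (chromosome 16, 66508003 to 66552544), measured 41.9, 42.7 and 40.5 CPM with BSJ-03-123 and 11.6, 11.1 and 12.5 CPM with YKL-06-102. DMSO had 40.6 ± 2.40 CPM. The difference was -1.83 ± 0.063 (edgeR adjusted p = 1.53e-18). UBASH3B, a phosphatase that restrains tyrosine kinase signals, lay at 11.3 to 11.7 CPM and 3.41 to 3.93 CPM (-1.68 ± 0.10). CELSR2, an atypical cadherin, lay at 9.08 to 10.1 CPM and 2.25 to 3.54 CPM (-1.65 ± 0.13).

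Among the other genes of this end were the retinoic acid receptor RARG (-1.63), the kinesin light chain KLC2 (-1.59), the thrombin receptor F2R (-1.42), the prostaglandin receptor PTGER2 (-1.20), the tubulin carboxypeptidase VASH1 (-1.15) and the lysosomal membrane gene SIDT2 (-0.94). GIMAP1, a small GTPase gene of lymphoid cells, crossed the vehicle level: 4.22 CPM with DMSO, 6.36 with BSJ-03-123 and 2.01 with YKL-06-102. Over the 15 lowest genes the difference of BSJ-03-123 from DMSO ran from -0.45 (CELSR2) to 0.59 (GIMAP1) with a median of -0.035. The difference of YKL-06-102 from DMSO ran from -2.71 (C11orf95) to -0.73 (SIDT2) with a median of -1.44.

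E2F target transcripts were higher with YKL-06-102 than with BSJ-03-123, and lower with both than with DMSO. Of the 73 members of the E2F and G1/S list, 66 were called higher and 0 lower by edgeR, or 90.4% against the 10.4% of all tested genes, and 72 had a difference above 0. At an unadjusted p under 0.05, and with DESeq2 and limma-voom, the number lower was also 0. The list's median difference was 0.35, or 1.28-fold, beside -0.0052 over all tested genes. Against DMSO the median was -1.37 with BSJ-03-123 and -0.99 with YKL-06-102, beside -1.49 with palbociclib, all read against the same DMSO libraries. The gene lists were written from general knowledge with earlier results of these data known. Members that are described beyond the 4 with the smallest p of a list were chosen after their values were seen.

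E2F1, the leading activator of the family (chromosome 20, 33675683 to 33686404), measured 17.6, 17.0 and 16.8 CPM with BSJ-03-123 and 30.5, 28.2 and 30.2 CPM with YKL-06-102. Both sets were well under the 90.8 ± 2.02 CPM of DMSO, and the BSJ-03-123 libraries sat close to the 15.7 CPM of palbociclib. The difference was 0.79 ± 0.058 (edgeR adjusted p = 1.95e-11). CCNE2 differed most in the list, from 3.45 ± 0.531 CPM with BSJ-03-123 to 10.8 ± 0.684 with YKL-06-102, under 45.6 with DMSO. The cyclin E1 gene CCNE1 was nearer, at 11.8 ± 0.916 and 17.7 ± 1.65 CPM (0.58 ± 0.076).

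The 6 genes of the replicative helicase, MCM2 to MCM7, were each called higher, from 0.37 for MCM7 to 0.68 for MCM4. MCM4 measured 268, 257 and 265 CPM with BSJ-03-123 and 420, 429 and 420 CPM with YKL-06-102. The 2 groups did not overlap, and DMSO had 1009 ± 16.7 CPM. The difference was 0.68 ± 0.030 (edgeR adjusted p = 3.58e-16). Other replication genes with large differences were CHAF1B, a subunit of chromatin assembly factor 1 (0.88), GINS2, a helicase cofactor (0.82), the uracil glycosylase UNG (0.80), CDC45 (0.62), the origin subunit ORC1 (0.61) and the licensing factor CDT1 (0.57). CHAF1B, GINS2 and MCM2 overlap expressed neighbours.

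Members not called were E2F2, DUT, FANCI, BRCA2, PRIM2, RPA3 and RAD51AP1. E2F2, another activator of the family, measured 6.72, 6.56 and 6.84 CPM with BSJ-03-123 and 5.69, 5.93 and 6.67 CPM with YKL-06-102, and the groups overlapped. It was the member of the list with a value below 0 (-0.14, 95% interval -0.34 to 0.071), under 31.6 ± 1.95 CPM with DMSO. For DUT, which clears dUTP, the interval was -0.039 to 0.11, so a difference above 1.5-fold lay outside it.

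**Figure D3:**
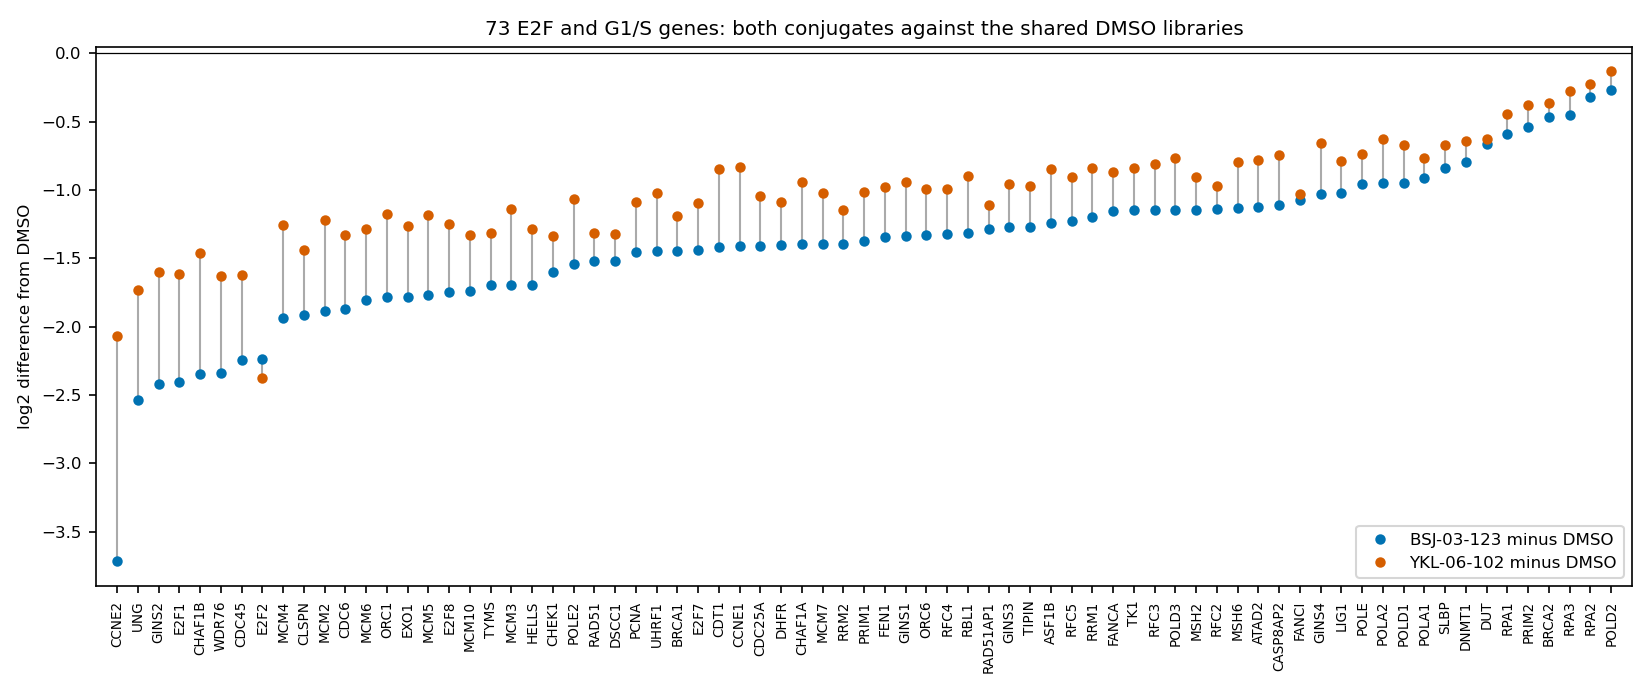
Log2 difference from DMSO (vertical axis) of each of the 73 E2F and G1/S genes with BSJ-03-123 (blue) and with YKL-06-102 (orange), ordered by the BSJ-03-123 value; both use the same 3 DMSO libraries. The YKL-06-102 point lies above the BSJ-03-123 point for 72 genes, and E2F2 is the exception.

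Upstream stretches of 5 of these members are shown because they carry E2F letters outside any annotated exon. They were taken, in order of the difference, from the searched members with such letters in the 160 bases before the start (RefSeq promoters, GRCh38.p14). Not every member of the list was searched. The absence here of a member with a larger difference therefore does not show that its promoter lacks such letters. Capitals mark TTTCCCGC, TTTCGCGC, TTTGGCGC or TTTGCCGC on either strand, and overlapping matches are merged. All run 5′ to 3′ on the strand of the gene and end at the base before its start.
MCM6: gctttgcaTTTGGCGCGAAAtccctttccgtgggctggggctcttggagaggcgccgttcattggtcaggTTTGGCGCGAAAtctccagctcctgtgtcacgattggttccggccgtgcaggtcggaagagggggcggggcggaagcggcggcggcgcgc
UHRF1: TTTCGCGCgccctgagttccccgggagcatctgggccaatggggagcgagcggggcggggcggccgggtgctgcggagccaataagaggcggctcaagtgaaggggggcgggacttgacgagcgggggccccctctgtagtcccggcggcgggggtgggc
HELLS: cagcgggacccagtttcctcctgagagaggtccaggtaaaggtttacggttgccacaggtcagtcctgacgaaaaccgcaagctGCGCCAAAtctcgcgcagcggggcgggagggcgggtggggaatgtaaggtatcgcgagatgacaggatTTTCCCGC
CASP8AP2: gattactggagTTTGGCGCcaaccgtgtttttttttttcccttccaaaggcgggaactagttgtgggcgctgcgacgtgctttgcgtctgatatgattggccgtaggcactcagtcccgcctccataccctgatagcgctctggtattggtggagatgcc
CDC25A: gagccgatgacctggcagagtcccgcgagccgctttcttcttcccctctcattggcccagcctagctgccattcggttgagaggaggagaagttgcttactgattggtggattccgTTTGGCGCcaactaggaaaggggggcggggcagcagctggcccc
They lie at chr2:135876444-135876603 (minus strand), chr19:4909984-4910143 (plus), chr10:94545628-94545787 (plus), chr6:89829720-89829879 (plus) and chr3:48188418-48188577 (minus). MCM6 holds 2 separate blocks of TTTGGCGCGAAA, with TTTGGCGC on the one strand and TTTCGCGC on the other, and its matches lie from 152 to 86 bases before the start. HELLS holds 2 matches, one of them 8 bases before the start, and the other 3 genes hold 1 match each. Such letters occur in 3.31% of the 35116 promoters of the table, each 300 bases long. A comparison between gene lists was void, because 79.5% of the E2F and G1/S members and 68.6% of the tested genes had a promoter there. MCM6, a helicase subunit, had 118 ± 2.42 CPM under BSJ-03-123 and 169.5 ± 5.40 CPM under YKL-06-102 (0.52 ± 0.036). HELLS, a chromatin remodeller, had 10.4 ± 0.751 and 13.8 ± 0.964 CPM (0.40 ± 0.081). UHRF1, which maintains DNA methylation, differed by 0.43, CASP8AP2, which supports histone gene transcription, by 0.37, and the phosphatase gene CDC25A by 0.36.

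Mitotic genes differed in the same direction and by less. Of 67 genes of the G2/M list, 33 were called higher (49.3%, beside 10.4% of all tested genes) and 2 lower (2.99%, beside 9.74%), with a median difference of 0.12. MYBL2, a factor that links the G1/S and G2/M programmes, led with 0.43 ± 0.041, from 83.5 ± 4.16 CPM to 113 ± 2.05 under 256 with DMSO. CDC20, the activator of the anaphase complex, measured 154, 152 and 150 CPM with BSJ-03-123 and 184, 188 and 182 CPM with YKL-06-102. The YKL-06-102 level was close to the 181 ± 5.58 CPM of DMSO (0.030, edgeR adjusted p = 0.503), and the BSJ-03-123 level was below it (-0.25, edgeR adjusted p = 4.3e-07). The aurora kinase gene AURKB was 0.33 higher. CENPF (-0.11) and ASPM (-0.15), a kinetochore and a spindle gene, were the members called lower. The number of members called higher moved with the processing, to 48 with the GC and length offsets and to 27 without BSJ-03-123 replicate 2 or 3.

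Among genes around CDK4/6 and RB, cyclin E, CDK2 and some E2F genes were higher with YKL-06-102, and CDK4, CDK6 and RB1 were not called. Of 40 tested members 14 were called higher (35%, beside 10.4% of all tested genes), 1, MNAT1, lower (-0.19; 2.5%, beside 9.74%), and 25 were not called. CCNE1, CCNE2, E2F1, E2F2, E2F7, E2F8 and RBL1 stand in the E2F list too. CDK6 measured 498, 524 and 506 CPM with BSJ-03-123 and 508, 485 and 504 CPM with YKL-06-102, and the groups overlapped. The difference was -0.030 (95% interval -0.10 to 0.041). With the GC and length offsets it was 0.094 and passed the test (edgeR adjusted p = 0.0052). CDK4 had 0.058 (interval -0.010 to 0.13) and RB1 -0.056 (-0.14 to 0.033). CCND3, at 0.087 (0.0047 to 0.17), did not pass the test, nor did CCND1 (-0.18 to 0.12). CDK4 passed it without BSJ-03-123 replicate 1 or DMSO replicate 2, and CCND3 without DMSO replicate 2, with no filter or in the 6 conjugate libraries alone.

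CDKN1A, the gene of the CDK inhibitor p21, measured 41.3, 40.5 and 38.9 CPM with BSJ-03-123 and 51.5, 50.7 and 51.6 CPM with YKL-06-102. Its groups did not overlap, with DMSO at 49.7 ± 2.87 CPM, and the difference was 0.35 ± 0.049 (edgeR adjusted p = 3.64e-06). CDK2, the partner of cyclin E, differed by 0.57 ± 0.050, from 25.8 to 38.2 CPM under 66.3 with DMSO. The cyclin D2 gene CCND2 was above DMSO with both conjugates, at 37.4 CPM with DMSO, 52.8 ± 1.62 with BSJ-03-123 and 63.0 ± 2.5 with YKL-06-102 (0.26 ± 0.044 between them). RBL1, the pocket protein p107, differed by 0.42, the repressors E2F7 and E2F8 by 0.34 and 0.50, and SKP2, which targets p27 for degradation, by 0.22. CCNA2 (0.095), FZR1 (0.11), E2F6 (0.18) and MNAT1 were called with adjusted p between 0.0404 and 0.0455, and each lost its call under 5 or more of the 17 alternatives.

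**Figure D4:**
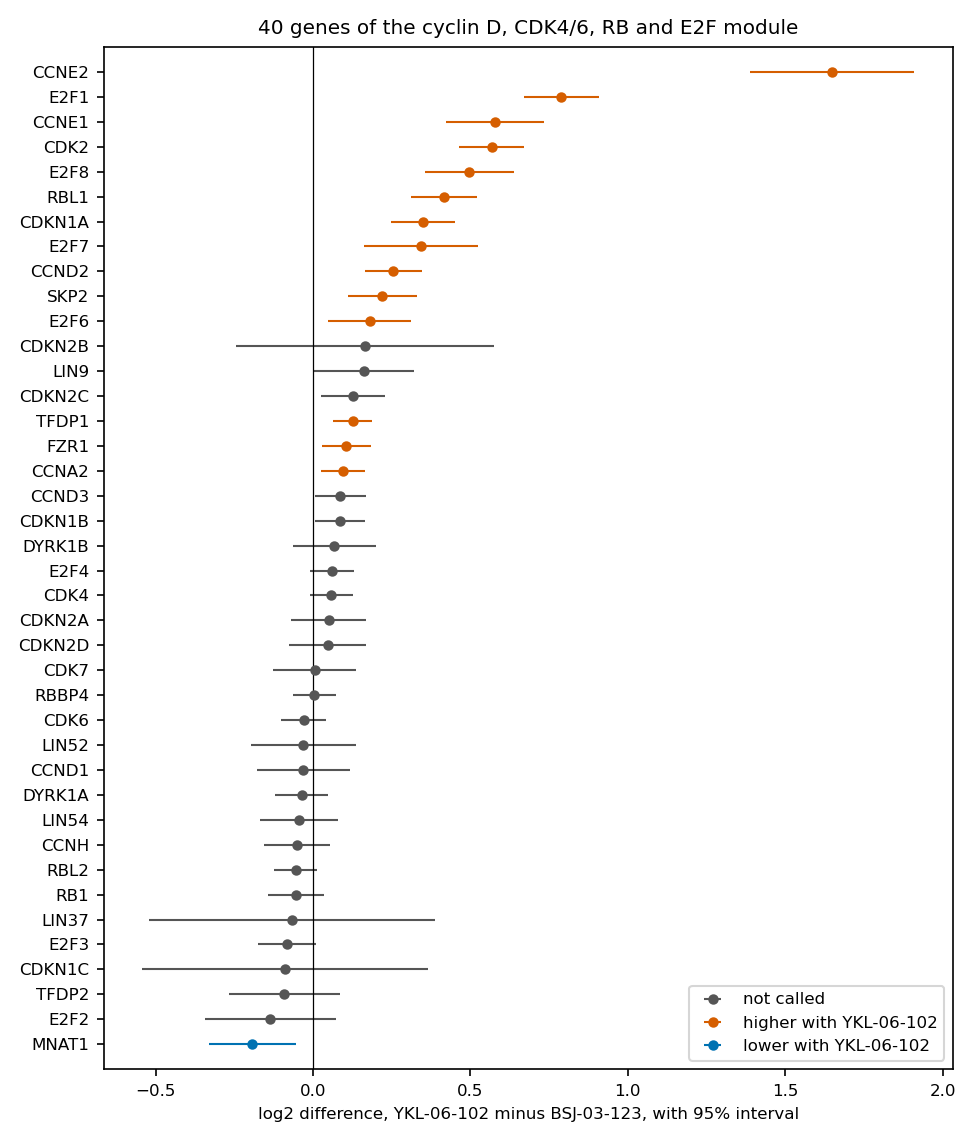
Log2 difference between YKL-06-102 and BSJ-03-123 (horizontal axis) with its 95% interval for 40 genes around CDK4/6 and RB (D-type cyclins, inhibitors, pocket proteins, E2F factors), coloured by call. CCNE2 (1.65) and E2F1 (0.79) lie furthest to the right, and the intervals of CDK4, CDK6 and RB1 include 0.

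In the list of the cereblon ligase and its reported substrates, CRBN and DDB1 were not called, and ZNF692 had the smallest p. Of its 29 tested members 5 were called higher (17.2%, beside 10.4% of all tested genes) and 4 lower (13.8%, beside 9.74%), shares near those of all genes. CRBN measured 26.5, 24.0 and 23.7 CPM with BSJ-03-123 and 24.0, 25.3 and 25.0 CPM with YKL-06-102, and the interval of its difference was -0.12 to 0.13. CRBN shares bases with TRNT1, a neighbour of similar level. ZNF692, a zinc-finger gene reported as a substrate, measured 130, 117 and 127 CPM with BSJ-03-123 and 181, 192 and 202 CPM with YKL-06-102. It was above the 86.9 ± 3.83 CPM of DMSO and the 87.3 CPM of palbociclib with both conjugates, and the difference was 0.62 ± 0.042 (edgeR adjusted p = 4.41e-12). IKZF1, the Ikaros gene, was 0.17 ± 0.033 higher, at 414 ± 21.8 and 467 ± 5.78 CPM. UBE2G1, an enzyme that extends ubiquitin chains on this ligase's substrates, was lower (-0.24 ± 0.035), as was ZMYM2 (-0.20), whose call was lost with the GC and length offsets (-0.069). IKZF2 (0.94), IKZF4 (0.21), RAB28 (0.22), ZBTB16 (-0.27) and the scaffold gene CUL4A (-0.10) each lost their call under 3 or more of the 17 alternatives. DDB1 had an interval of -0.054 to 0.063, and GSPT1, a translation termination factor, of -0.070 to 0.058.

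Myeloid genes were called in both directions. Of 49 surface receptors 17 were higher (34.7%, beside 10.4% of all tested genes) and 10 lower (20.4%, beside 9.74%), with a median of 0.089. Beside TREM2, FCGRT, SIGLEC1 and ANPEP the higher members included the Fc receptor FCGR2A (1.09 ± 0.053), at 25.5 to 26.3 CPM with BSJ-03-123 and 52.8 to 56.7 with YKL-06-102. FCGR2A has a near copy in FCGR2B (1.12), and reads could be split between them. The endotoxin receptor TLR4 was 0.78 higher, and CSF1R, a growth factor receptor of the macrophage lineage, 0.64 higher, at 91.9 ± 2.43 and 144 ± 1.88 CPM over 63.0 with DMSO. TLR6 (-0.73) and TLR1 (-0.38), which share bases, the immunoglobulin-like receptor LILRA2 (-0.35) and the integrin gene ITGAX (-0.32) were lower.

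Of 22 granule and effector genes 7 were called higher (31.8%, beside 10.4% of all tested genes) and 1 lower (4.55%, beside 9.74%). LYZ, lysozyme, measured 692, 674 and 686 CPM with BSJ-03-123 and 842, 858 and 823 CPM with YKL-06-102, and the groups did not overlap. The difference was 0.30 ± 0.031 (edgeR adjusted p = 2.11e-08). PRTN3, the proteinase 3 gene, was 0.34 higher and S100A9, a calcium-binding alarmin of low level here (1.98 and 5.23 CPM), 1.40 higher. CTSS, a cathepsin of antigen presentation, was lower (-0.33 ± 0.045).

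Among 27 myeloid transcription factors 7 were higher (25.9%, beside 10.4% of all tested genes) and 3 lower (11.1%, near the 9.74% of all). SPI1, the PU.1 gene, measured 335, 337 and 325 CPM with BSJ-03-123 and 428, 440 and 444 CPM with YKL-06-102. DMSO had 315 ± 21.4 CPM and palbociclib 333, so YKL-06-102 was the group apart. The difference was 0.40 ± 0.036 (edgeR adjusted p = 2.27e-09). RARA, a retinoic acid receptor, was 0.31 higher, opposite to RARG, and TFEC, a factor of macrophages, 0.33 higher. Of 18 targets of KMT2A fusions 1, LMO2, was higher (0.12) and 3, SATB1, MYB and FLT3, were lower by small amounts (-0.095, -0.099 and -0.12). These are 5.56% higher and 16.7% lower, beside the same 10.4% and 9.74%, and the 3 lower calls were lost under 9, 7 and 5 of the 17 alternatives.

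**Figure D5:**
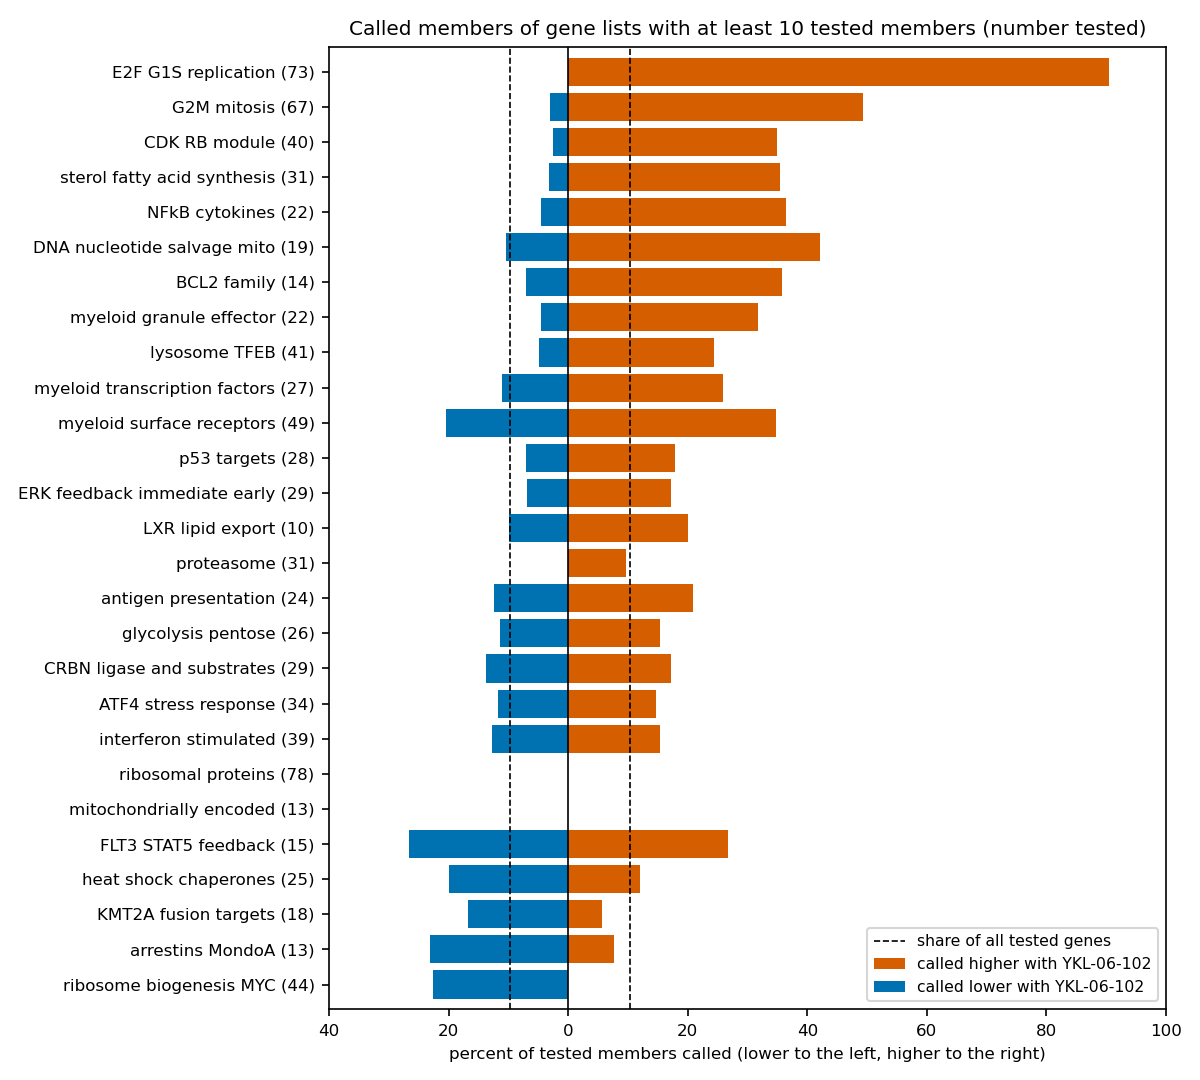
Percent of tested members called higher (right, orange) and lower (left, blue) with YKL-06-102 for each gene list with at least 10 tested members, with the number tested; dashed lines mark the 10.4% and 9.74% of all tested genes. The E2F list stands at 90.4% higher, and ribosomal proteins and mitochondrially encoded genes have no called member.

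Signalling, inflammatory and glucose genes gave mixed counts, read here against the 10.4% higher and 9.74% lower of all tested genes. Of 22 NF-kappaB and cytokine genes 8 were higher (36.4%) and 1, IL1B, lower (4.55%). TNF measured 19.5, 20.9 and 18.6 CPM with BSJ-03-123 and 31.8, 30.7 and 30.1 CPM with YKL-06-102, a difference of 0.65 ± 0.074 (edgeR adjusted p = 1.1e-07). Both levels were above the 13.4 ± 1.60 CPM of DMSO. Of 39 interferon genes 6 were higher (15.4%), led by IFITM3 (0.98) and OAS3 (0.58), and 5 lower (12.8%), such as SAMD9 (-0.24) and IRF1 (-0.22), shares near those of all genes. Of 26 glycolysis genes 4 were higher (15.4%), such as HK1 (0.20), and 3 lower (11.5%), such as HK2 (-0.20), also near the shares of all genes. Of 13 arrestin and glucose-sensing genes ARRDC4 was higher (7.69%) and 3 were lower (23.1%). Of 15 FLT3 and STAT5 genes 4 were higher and 4 lower (26.7% each), among them SOCS3 (0.46) and PIM2 (-0.24). Of 29 ERK genes 5 were higher (17.2%) and 2 lower (6.9%), among them DUSP6 (0.25) and IER5 (-0.42).

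CIITA, the master regulator of MHC class II genes, was 0.63 ± 0.055 higher, at 40.5 ± 2.05 and 62.5 ± 1.54 CPM, and HLA-DRA was 0.18 higher. They belong to 24 antigen presentation genes, of which 5 were higher (20.8%) and 3 lower (12.5%), beside 10.4% and 9.74% of all tested genes. CIITA overlaps DEXI.

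Most of the called sterol, fatty acid and lysosome genes were higher. Of 31 sterol and fatty acid genes 11 were higher (35.5%, beside 10.4% of all tested genes) and 1 lower (3.23%, beside 9.74%). FADS1, a fatty acid desaturase, measured 206, 204 and 203 CPM with BSJ-03-123 and 301, 306 and 290 CPM with YKL-06-102. The YKL-06-102 level lay near the 288 ± 4.42 CPM of DMSO and the BSJ-03-123 level below it, and the difference was 0.55 ± 0.031 (edgeR adjusted p = 1.12e-13). FADS1 and its neighbour FADS2 (0.44) share bases, so their reads may be mixed. Of 41 lysosome genes 10 were higher (24.4%), including TFE3 (0.39), a factor that drives this programme, CTSZ (0.31) and CTSB (0.24), and 2 were lower (4.88%). Of 10 genes of liver X receptor and lipid export NR1H3 and PLTP (0.35) were higher and MYLIP (-0.19) lower, too few genes to set beside the shares of all genes. PLTP overlaps CTSA, which has 35.8 times its level, and its call was lost under 6 of the 17 alternatives.

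Stress and survival genes gave scattered calls. SERPINH1, the collagen chaperone HSP47 (chromosome 11, 75562056 to 75572783), measured 111, 108 and 111 CPM with BSJ-03-123 and 217, 218 and 214 CPM with YKL-06-102. DMSO had 105 ± 4.69 CPM, so the YKL-06-102 libraries stood alone, and the difference was 0.97 ± 0.034 (edgeR adjusted p = 3.42e-18). Of 25 heat shock and chaperone genes, SERPINH1 among them, 3 were higher (12%, beside 10.4% of all tested genes) and 5 lower (20%, beside 9.74%). HSPA1A (0.22) and its near copy HSPA1B (-0.33) went opposite ways, and counts of such copies are uncertain.

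Of 34 genes of the ATF4 response 5 were higher (14.7%), including CTH (1.16), and 4 lower (11.8%), including DDIT4 (-0.41) and SLC7A5 (-0.16), shares near the 10.4% and 9.74% of all tested genes. Of 14 BCL2 family genes 5 were higher (35.7%) and 1 lower (7.14%). BCL2L2, the BCL-W gene, differed by 0.53 ± 0.059 and BBC3, the PUMA gene, by 0.39 ± 0.091, while BCL2 was lower (-0.22 ± 0.033), at 263 ± 8.79 and 227 ± 8.34 CPM. Of 28 p53 targets 5 were higher (17.9%) and 2 lower (7.14%).

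The called genes of ribosome production were lower. Of 44 ribosome biogenesis genes 0 were called higher by edgeR, DESeq2 or limma-voom or at an unadjusted p under 0.05, and 10 lower by edgeR (22.7%, beside 9.74% of all tested genes), led by WDR12 (-0.23), POLR1B (-0.17) and DDX21 (-0.15), with a median of -0.057. MYC had -0.084 (interval -0.15 to -0.013) and was not called (edgeR adjusted p = 0.0917), but it passed in the fit of the 6 conjugate libraries alone and with the GC and length offsets (-0.11). Of 78 ribosomal protein genes (median 0.015) and 13 mitochondrially encoded genes (median 0.089), 0 were called by edgeR, DESeq2 or limma-voom, and 2 and 1 were higher at an unadjusted p under 0.05. Of 31 proteasome genes 3 were called higher (9.68%, near the 10.4% of all), by 0.12 at most. Among 19 genes of nucleotide supply 8 were higher (42.1%), with TYMS (0.38), RRM1 (0.35) and RRM2 (0.24) also in the E2F list, and TK2 and DCK (-0.13) were lower (10.5%).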

How the data were processed

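RNA-seq reads were trimmed with Trimmomatic 0.36, aligned with STAR 2.5.2b to hg38 and counted with HTSeq, per the submitters' processing notes. The HTSeq version, strand setting and annotation release: not given in the sources used here. The deposited values are whole-number counts per gene for the 12 libraries, with no normalization by the authors. Gene symbols and positions were taken from GENCODE 29 (GRCh38) and named 57447 of the 58051 genes.

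Counts were fitted with edgeR 4.0.16 in R 4.3.3: TMM scaling, filterByExpr with a minimum count of 10 and a minimum total of 15, 1 mean per group over all 12 libraries (8 residual degrees of freedom), the quasi-likelihood test, 2-sided, and Benjamini-Hochberg adjustment over 14214 genes. Errors of log2 differences are standard errors, with 95% Wald intervals. CPM values use the TMM-scaled totals, except those of the cell type markers, which use the library totals alone. They are not per length, so apart from the marker sums they are compared within a gene only. The fit was tested on simulated data first. No pair of libraries of a group agreed within sampling noise, and the total counts of the 12 libraries were between 18764307 and 25539858.

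The members and the 31 gene lists were chosen with earlier results of these data known. Genes were named by a rule: the 15 highest and 15 lowest called differences without overlap at an average log2 CPM of at least 2, from each list the called genes with the smallest p, 4 at most, all members of the CDK and cereblon lists, 14 fixed genes, and the 5 uncalled genes of at least 8 with the narrowest interval. Other genes were named after their values were seen. Alternatives were library totals only, DESeq2 1.42.0, limma-voom (limma 3.58.1), no filter, the 6 conjugate libraries only, a replicate block and leaving out each DMSO or conjugate library. Thinning to equal totals and GC and length offsets were added after seeing the data. Lists of lymphoid, erythroid and stromal markers, with 6, 4 and 5 tested members, gave 0, 0 and 1 member called higher and 1, 0 and 1 lower. The list of APOBEC3 genes, with 5 tested members, gave 1 higher. These lists are too small to set beside the 10.4% higher and 9.74% lower of all tested genes. Some genes are not reported here.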

Additional observations from a re-analysis of the deposited data

How the results depend on the processing

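Leaving out 1 library at a time, the number of genes lower with YKL-06-102 ran from 795 to 1396. It was 903, 971 and 1022 without BSJ-03-123 replicates 1, 2 and 3, and 840, 823 and 795 without YKL-06-102 replicates 1, 2 and 3. The other counts stayed within 1.5 times of their values under all 17 alternatives: genes called in all, genes higher, genes differing at least 2-fold in each direction, and higher members of the E2F and G2/M lists. Of the 2861 calls, 82.4% were kept with GC and length offsets, 80.6% of the 2828 testable ones with DESeq2, 85.6% with no filter and 73.3% to 98.9% with 1 library left out. CDK6 reversed with GC and length offsets (0.094), and the cause was not tested. Of 132 called genes named by the rule, 112 kept their call under all 17 alternatives. Same-numbered libraries of the conjugates showed no shared deviation (correlations -0.0365, -0.0445 and 0.0801, against -0.102 to 0.145 for the other pairs). Correlations over 3 libraries a group cannot settle whether the numbers pair them, which the labels do not give. A fit with a replicate block called 2839 genes and kept 97.3% of the 2861 calls. Depth limits genes of low level: 91.2% of all tested genes had an interval within 2-fold, against 99.2% of those whose average log2 CPM was 2 or more.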

Other observations

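Some genes of low count differed by more than 4-fold. All of those given here but SPARC, which is in the stromal marker list, were chosen after their values were seen. SPARC, a matricellular glycoprotein, had 2, 2 and 4 counts with BSJ-03-123 and 44, 41 and 42 with YKL-06-102. SIGLEC11, a sialic acid receptor of macrophages, had 2, 4 and 4 counts against 50, 48 and 51. SERPINB2, the plasminogen activator inhibitor of monocytes, had 8, 6 and 10 counts against 105, 100 and 115, and TREML1, a receptor of the TREM family, 5, 6 and 6 against 50, 52 and 59. In the opposite direction MLLT3, a known fusion partner of KMT2A, had 12, 13 and 14 counts with BSJ-03-123 and 1, 1 and 5 with YKL-06-102. For these 5 genes each library of the lower conjugate had 10 counts or fewer, so the size of the difference rests on few counts.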
